A study of Mus musculus with 3 samples.

Results

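The genes described here encode the YTH and IGF2BP families of proteins that bind N6-methyladenosine (m6A) in mRNA. The members were the genes named Ythdf1, Ythdf2, Ythdf3, Ythdc1, Ythdc2, Igf2bp1, Igf2bp2 and Igf2bp3 in GENCODE M21, 8 of 55450 annotated genes. A site belonged to a member when it lay inside the span of the gene on the same strand. RAW264.7 is an established mouse macrophage line. Its poly(A)+ RNA was profiled without treatment by miCLIP2 in 3 biological replicates, in which an anti-m6A antibody is crosslinked to RNA and leaves a mark at the bound nucleotide during reverse transcription. The deposited list pools these replicates and holds 19301 predicted sites, each with a position, a strand and a prediction score. The score is the output of the m6Aboost classifier and is not a methylation level. The list gives neither read counts nor values per replicate, so the depth and the spread between replicates are unknown for every site, and no difference could be tested.

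m6A is placed on nascent transcripts by a methyltransferase complex, mostly at DRACH motifs (D is A, G or T, R is A or G, H is A, C or T), and can be removed by demethylases. Reader proteins bind the modified base: the YTH domain holds the methylated A in an aromatic pocket, while the IGF2BP proteins bind through KH domains and are known for stabilising their target mRNAs. Through these readers, the mark is tied to mRNA decay, translation, splicing and export. The comparison here asks whether transcripts that encode readers are themselves on the list of predicted m6A sites, and where on these transcripts the sites lie.

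Of the 8 reader genes, 4 had a listed site. They held 24 sites, 0.124% of the list. Across all protein-coding genes, 5080 of 21951 had at least 1 site, or 23.1%. All 3 cytoplasmic YTHDF readers had sites, with 12 in Ythdf2, 6 in Ythdf1 and 5 in Ythdf3. The nuclear reader gene Ythdc1 had 1 site, and Ythdc2, Igf2bp1, Igf2bp2 and Igf2bp3 had none. The list cannot tell an unmodified transcript from one that is weakly expressed or poorly covered.

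The label of the cells was checked on macrophage genes, for which a site shows only that the transcript was sampled. Sites were present in 4 of 7 of these genes, against 23.1% of all protein-coding genes. With 7 genes this difference was not tested. Csf1r, the receptor for the macrophage growth factor CSF1, had 11 sites, and the transcription factors Spi1 and Cebpb had 6 each. Lyz2, the macrophage lysozyme, had 2. Adgre1, Cd68 and Itgam had none, which says nothing about their level.

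Among the 5080 protein-coding genes with a site, the median was 3 sites per gene, with quartiles of 1 and 5, and 30.2% had 5 or more sites. All 3 Ythdf genes were among those with 5 or more. For Ythdf2, 208 genes had as many sites or more, 4.09% of genes with a site. For Ythdf1 this share was 22.7% and for Ythdf3 30.2%. The lead of Ythdf2 was smaller among sites of higher score: at a minimum score of 0.7 it had 6 sites, against 5 in Ythdf1 and 4 in Ythdf3. In the ranking by number of sites, with ties ordered by mean score, Ythdf2 stood at position 206. Its neighbours, all with 12 sites, were the transcription factor gene Zfp217 and the DNA repair scaffold gene Slx4 above it, and Mgat2, which encodes an N-glycan processing enzyme, and the histone methyltransferase gene Kmt5b below it. The spliced transcripts also differ in length, with 2272 nt in Ythdf1, 4129 nt in Ythdf2 and 4929 nt in Ythdf3. Per kb of spliced transcript, Ythdf2 had 2.91 sites and Ythdf1 2.64, while Ythdf3 had 1.01, close to the median of 0.97 over genes with a site. Ythdc1, with 0.338 sites per kb, lay below that median. The Ythdf1 value depends on the chosen transcript, which ends at 180905370, while the gene runs on to 180904377.

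The scores of the 24 sites ran from 0.503 to 0.853, with a median of 0.730. Over all sites in protein-coding genes the median was 0.734, with quartiles of 0.627 and 0.833. The members thus lay in the middle of the list by median, but none of their sites reached its upper end, where scores come up to 1. Median scores per gene were 0.773 for Ythdf1, 0.691 for Ythdf2 and 0.775 for Ythdf3. The gene with most sites therefore had the lowest median of these paralogues.

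On the transcript with the longest coding sequence (CDS), 23 of the 24 sites lay in the CDS, or 95.8% (95% Wilson interval 79.8 to 99.3%, counting error only). The other site lay in the 3′ UTR (4.17%, interval 0.739 to 20.2%). None was in a 5′ UTR or an intron. Over all protein-coding genes placed in the same way, 53% of the exonic sites were in the CDS (52.3 to 53.7%) and 44.7% in the 3′ UTR (44 to 45.4%). The reader sites were thus more often in coding sequence than the sites of the list as a whole, a trait they had in common with the writer genes, where 52 of 56 sites were in the CDS, or 92.9% (83 to 97.2%). Within 200 nt of the stop codon lay 2 of the 24 reader sites, 8.33% (2.32 to 25.8%), against 32.3% (31.6 to 32.9%) over all protein-coding genes. With a window of 400 nt the share was 29.2% of the reader sites (7 of 24) and 48.3% (47.5 to 49%) over all protein-coding genes. With 7 sites in this window, the contrast is a description and was not tested.

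**Figure D1:**
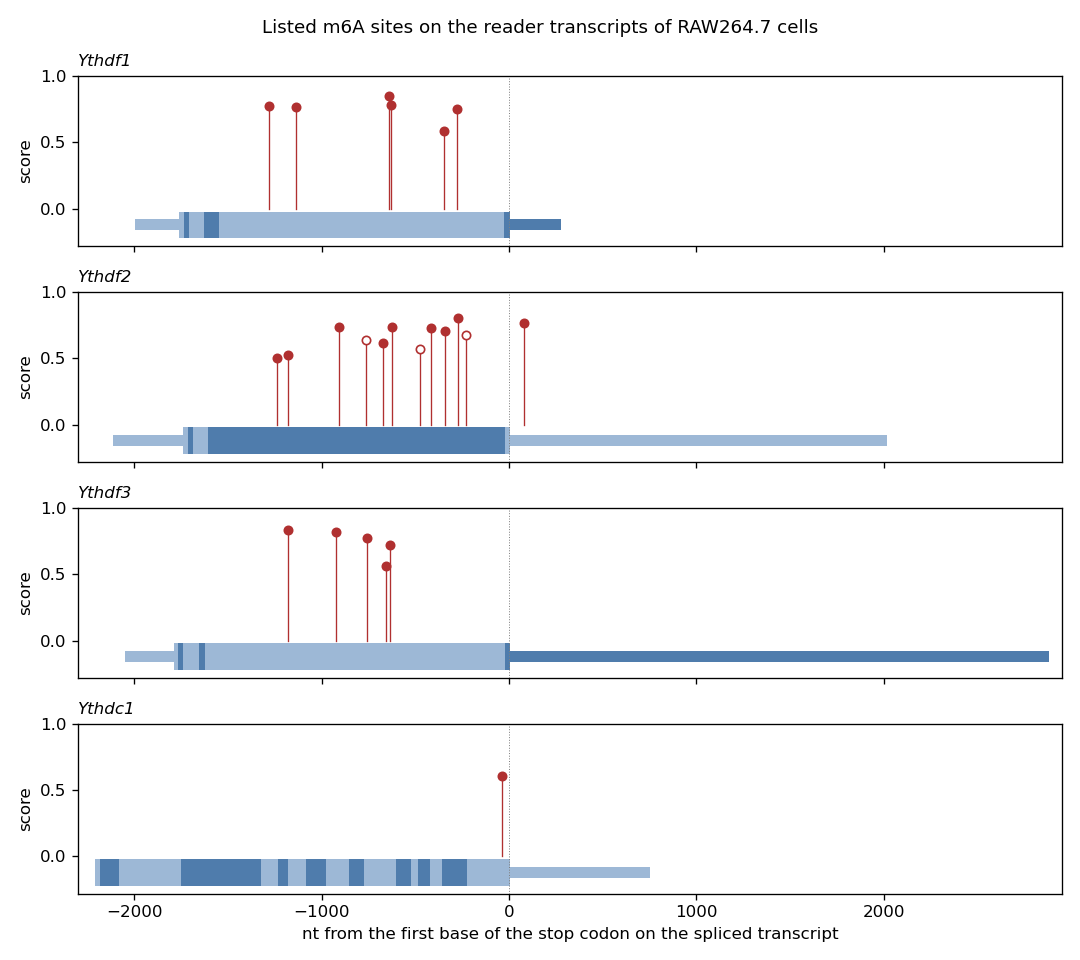
Spliced transcripts of the 4 reader genes with sites, drawn to scale with the first base of the stop codon at 0 (x axis, nt); alternating blues mark exons, tall boxes the CDS and low boxes the UTRs. Each lollipop is a listed site with its m6Aboost score as height (y axis), filled at DRACH and open at other motifs; 22 of the 23 Ythdf sites stand in 1 long internal exon of each gene, and 1 Ythdf2 site lies in the 3′ UTR.

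YTHDF1, YTHDF2 and YTHDF3 are cytoplasmic proteins with a disordered N-terminal part and a C-terminal YTH domain. Their genes share an exon layout in which most of the protein is encoded by the exon before the last. This exon measured 1521 nt in Ythdf1 (exon 5 of 6), 1584 nt in Ythdf2 (exon 4 of 5) and 1599 nt in Ythdf3 (exon 5 of 6). It held 22 of the 23 Ythdf sites, 95.7% (79 to 99.2%). Over all protein-coding genes, internal exons of 1000 nt or more held 9.23% of exonic sites (8.83 to 9.65%). These shares are not of like genes. Of the 5080 protein-coding genes with a site, 413 have such an exon, while all 3 Ythdf genes do. In the Ythdf transcripts the long exons also hold 108 of the 227 DRACH A. The other members have no such exon. Their longest internal exon was 427 nt in Ythdc1, 293 nt in Ythdc2, 282 nt in both Igf2bp1 and Igf2bp3 and 252 nt in Igf2bp2. Among protein-coding genes with an internal exon of 1000 nt or more, 37.3% had at least 1 listed site, against 22.4% of genes without one. The part of transcript level in this difference was not tested, as the list holds no expression values.

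Ythdf1, best known for promoting translation of methylated mRNAs, spans 180904377 to 180920949 of chromosome 2 (minus strand, GRCm38). Its 6 sites were all in exon 5 and all at DRACH motifs. The 2 most upstream are coding in all 3 coding transcripts, and the other 4 in 2 of them, as they lie outside the remaining one. The most upstream site, at 180911940, had a score of 0.777 and lay 1278 nt before the stop codon, and the next, at 180911798, had 0.770. A close pair followed 6 nt apart at 180911300 and 180911294, with scores of 0.853 and 0.781. The first of these was the highest score of any reader site. The last 2 sites stood 71 nt apart at 180911008 and 180910937, 346 and 275 nt before the stop codon, with scores of 0.586 and 0.749.

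Ythdf2, the reader that recruits the CCR4-NOT deadenylase to methylated mRNAs, spans 132184912 to 132212303 of chromosome 4 (minus strand). Its 11 sites in exon 4 were spread from 1237 to 227 nt before the stop codon. The 2 most upstream, at 132205347 and 132205291, were close to the threshold of 0.5 with scores of 0.503 and 0.523. The highest score was 0.802 at 132204382. The remaining 8 sites of the exon had scores between 0.572 and 0.737. The remaining site of the gene, and the only reader site in a 3′ UTR, was at 132186844 in exon 5, 82 nt after the first base of the stop codon, at GGACT with a score of 0.765. In GENCODE M21 the sites of exon 4 are coding in 1 of 3 coding transcripts of Ythdf2 and intronic in the other 2, whereas the 3′ UTR site is in the 3′ UTR of all 3.

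Ythdf3, which acts together with YTHDF1 and YTHDF2, spans 16183212 to 16217037 of chromosome 3 (plus strand). All 5 sites were at DRACH motifs in exon 5 and coding in each of the 3 coding transcripts. They lay at 16204269 (score 0.834), 16204522 (0.820), 16204689 (0.775), 16204790 (0.558) and 16204811 (0.718). The last was 635 nt before the stop codon, so that the final part of the CDS and the 3′ UTR of 2877 nt had no listed site. The 3′ UTR of Ythdf2 is shorter, at 2012 nt, and that of Ythdf1 measures 272 nt on the chosen transcript.

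To show the sequence context, 21 nt around the A are printed for the highest-scoring site of Ythdf1, Ythdf3 and Ythdc1; that of Ythdf2 is among the aligned positions given further on. Sequences are GRCm38, 5′ to 3′ on the strand of the gene, with the pentamer around the listed A in capitals. In the Ythdf1 window, the neighbouring listed A lies 6 nt downstream.
Ythdf1, chr2:180911290-180911310, minus strand, score 0.853: gccaacagTGACAgtaactct
Ythdf3, chr3:16204259-16204279, plus strand, score 0.834: gcatgactGGACTgaaaattg
Ythdc1, chr5:86835861-86835881, plus strand, score 0.609: tgtgatcgGGACAgagaccga

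Motifs read from the genome placed 21 of the 24 reader sites at DRACH, 87.5% (69 to 95.7%), against 92% (91.6 to 92.4%) over all sites in protein-coding genes. GGACA was the most frequent pentamer of the reader sites, with 8 of 24, or 33.3%, whereas it made up 13.2% of the whole list. The 8 include Ythdf1 and Ythdf2 sites at the same aligned codons, given further on, so they are not independent. The difference was not tested. GGACT, the most frequent pentamer of the list at 19.4%, occurred at 2 reader sites. All 3 sites outside DRACH were in exon 4 of Ythdf2 and end in G, the base that H does not include. They are printed because m6A is commonly sought at DRACH alone.
Ythdf2, chr4:132204862-132204882, minus strand, score 0.640: agggcaacAGACGcagccatt
Ythdf2, chr4:132204576-132204596, minus strand, score 0.572: tactctgaGGACGatatccac
Ythdf2, chr4:132204327-132204347, minus strand, score 0.674: tttgtgaaGGACGttcccaat
The most frequent of these pentamers in the whole list was GGACG, with 382 sites or 1.98%, while AGACG had 87 sites or 0.451%.

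The motif counts show how many possible positions were on the list. The spliced Ythdf transcripts held 49 DRACH A in Ythdf1, 81 in Ythdf2 and 97 in Ythdf3, of which 6, 9 and 5 were listed. These are shares of 12.2% (5.73 to 24.2%), 11.1% (5.96 to 19.8%) and 5.15% (2.22 to 11.5%). The median over genes with a site was 4.17%, with quartiles of 2.04 and 7.89%. Ythdf1 and Ythdf2 thus lay above the upper quartile and Ythdf3 between the quartiles. The intervals of the 3 paralogues overlap. As for the sites per kb, the Ythdf1 share depends on the chosen transcript.

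Within the long exon the shares were 17.6% for Ythdf1 (6 of 34 DRACH A, 8.35 to 33.5%), 22.2% for Ythdf2 (8 of 36, 11.7 to 38.1%) and 13.2% for Ythdf3 (5 of 38, 5.75 to 27.3%). The exon thus had similar numbers of DRACH A in each paralogue, and similar shares on the list within their error. Elsewhere on the same transcripts, 1 of 119 DRACH A was listed, 0.84% (0.148 to 4.61%). Over all protein-coding genes with a site, 8.57% of the DRACH A in internal exons of 1000 nt or more and 4.42% of those elsewhere were listed, and the latter share is inside the Ythdf interval. For the long exons of the 3 Ythdf genes together the share was 17.6% (19 of 108, 11.6 to 25.8%, counting error only). The 8.57% also covers such exons without a site, while all 3 Ythdf exons held sites, so these shares are not of like exons. In the 370 internal exons of 1000 nt or more that held a site, the median share was 9.52%, with quartiles of 5 and 18.1%. Of these exons, 16.8% had a share as high as that of Ythdf2, 26.8% as high as Ythdf1 and 37.8% as high as Ythdf3. The Ythdf exons were therefore above the median but not at the extreme of such exons.

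The distance to exon junctions was described for the same sites, since m6A is known to be sparse close to splice junctions. All 24 reader sites lay at least 100 nt from the nearest junction of their transcript. Over all protein-coding genes 12.3% of exonic sites were closer than that, a share inside the interval of the reader sites (0 to 13.8%). In the long exons the distance ran from 205 to 740 nt, and the smallest value of any reader site was 103 nt, at the 3′ UTR site of Ythdf2. In the 3 Ythdf transcripts, 32 DRACH A lay under 100 nt from a junction and none was listed, while 20 of the other 195 were listed, or 10.3% (6.74 to 15.3%). Over all protein-coding genes with a site, 1.39% (1.33 to 1.45%) of DRACH A near a junction and 6.88% (6.78 to 6.99%) of the others were listed. With 32 positions the interval for the Ythdf genes is 0 to 10.7%, which holds both of these shares. The absence near junctions in the Ythdf genes can thus be told apart from neither.

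Neighbouring sites in the same reader gene were a median of 96 nt apart on the spliced transcript, with a range from 6 to 498 nt, and 10 of the 20 neighbouring pairs were within 100 nt, or 50% (29.9 to 70.1%). Over all protein-coding genes the median was 101 nt and 49.8% of the pairs were that close, so the spacing of the reader sites was near that of the list. In the codon, 12 of the 23 CDS sites were at the middle base, 7 at the third and 4 at the first. The share at the middle base was 52.2% (33 to 70.8%), close to the 48.9% (48 to 49.9%) of CDS sites over all protein-coding genes.

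The 3 YTHDF proteins are paralogues, so their sites could be compared codon by codon. Translated from the chosen transcripts, they measured 586, 579 and 596 residues for YTHDF1, YTHDF2 and YTHDF3, and between 69.2 and 71.9% of aligned residues were identical in each pair. On the alignment of 635 columns, 27 positions had a DRACH A in at least 2 genes, at the same base of the same codon. Of these, 21 had no listed site, 3 had one in 1 gene and 3 in 2 genes. None was listed in all 3. DRACH A at shared positions were listed in 14.8% of cases (9 of 61, 7.96 to 25.7%) and those found in 1 gene alone in 15.6% (10 of 64, 8.71 to 26.4%). The shares were thus close, but both intervals are wide, and the 61 shared A lie at 27 positions and are not independent. No difference was tested.

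**Figure D2:**
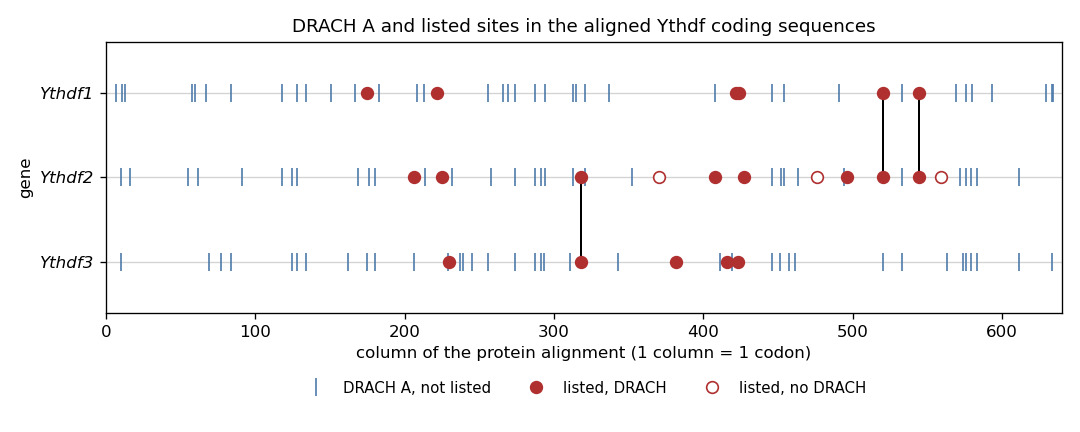
Columns of the protein alignment of YTHDF1, YTHDF2 and YTHDF3 (x axis, 1 column per codon) with every DRACH A that is not listed (ticks), listed sites at DRACH (filled circles) and listed sites at other motifs (open circles) in each gene (y axis). Black lines join the 3 pairs of listed sites at the same base of the same aligned codon; Ythdf3 has no listed site from column 424 on.

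The 3 pairs at the same aligned codon are printed with the window of the paralogue that was not listed, in which the capitals mark the pentamer at the aligned base. The pair at column 318 joined Ythdf2 at 132205019 and Ythdf3 at 16204522. The aligned pentamer of Ythdf1 is not DRACH.
Ythdf1, chr2:180911513-180911533, minus strand, not listed: ggacattgGTACTtgggataa
Ythdf2, chr4:132205009-132205029, minus strand, score 0.735: ggatattgGAACTtgggataa
Ythdf3, chr3:16204512-16204532, plus strand, score 0.820: gaatattgGAACTtgggatga
At column 520 all 3 genes had the pentamer GGACA, and it was listed in Ythdf1 and Ythdf2 but not in Ythdf3.
Ythdf1, chr2:180910998-180911018, minus strand, score 0.586: atgggagtGGACAtttctgtg
Ythdf2, chr4:132204443-132204463, minus strand, score 0.709: acggcagtGGACActtctgtg
Ythdf3, chr3:16205093-16205113, plus strand, not listed: atggcagtGGACAtttttgtg
At column 544 the sites of Ythdf1 and Ythdf2 were again at GGACA, and the aligned pentamer of Ythdf3 is not DRACH. The Ythdf2 site is its highest-scoring one.
Ythdf1, chr2:180910927-180910947, minus strand, score 0.749: tggtctcaGGACAagtggaag
Ythdf2, chr4:132204372-132204392, minus strand, score 0.802: tggtcccaGGACAaatggaag
Ythdf3, chr3:16205164-16205184, plus strand, not listed: tggtctcaGGATAagtggaag
In both genes the sites of columns 520 and 544 were 71 nt apart.

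At 3 further positions a DRACH A was listed in 1 gene and present but not listed in another. At column 175 the Ythdf1 site at 180911940 faced an unlisted DRACH A of Ythdf3, and at column 206 the Ythdf2 site at 132205347 also faced one in Ythdf3. At column 408 the Ythdf2 site at 132204781 faced one in Ythdf1. The remaining listed DRACH sites of the CDS had no DRACH A at the aligned base of a paralogue. When sites within 3 columns of each other were counted as pairs, there were 7, and the added ones lay between columns 222 and 225 or between 422 and 427.

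Along the alignment, columns 424 to 635 held 6 sites of Ythdf2, 3 of Ythdf1 and none of Ythdf3. Of the DRACH A in these columns, 4 of 15, 3 of 14 and 0 of 13 were listed, as 2 of the Ythdf2 sites are not at DRACH. The columns were divided into 3 stretches of near-equal length, and the last Ythdf3 site is at column 423, directly before this stretch. In columns 212 to 423 the counts were 4, 2 and 5. Columns 1 to 211 had 1 site each in Ythdf1 and Ythdf2 and none in Ythdf3. The C-terminal YTH domain is encoded toward the 3′ end of the long exon. The listed sites of Ythdf3 lay between nt 444 and 986 of the exon, while those of Ythdf2 ran from nt 369 to 1379. With 5 sites in Ythdf3, this is a description of their places and not a tested difference.

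Because the paralogues are alike and have processed copies in the genome, the 41 nt around each of the 24 sites were searched in GRCm38 on both strands. For 22 sites the sequence occurred once. The 41 nt around the Ythdf2 site at 132205347 also occurred in the processed pseudogenes Gm8401 and Gm6823 on chromosome X, and those around 132204453 in Gm8401. Reads confined to these stretches could not be assigned to 1 place. The copies on chromosome X were not listed at the matching A. The authors kept only uniquely mapping reads, and the 41 nt do not show how the reads of a site mapped. The site at 132204453 is the Ythdf2 member of the pair at column 520.

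Ythdc1 encodes the nuclear YTH reader, known for roles in splicing and export of methylated mRNAs. It spans 86804221 to 86836659 of chromosome 5 (plus strand). The only listed site, at 86835871 in the last of 17 exons, had a score of 0.609 and was in the CDS 35 nt before the stop codon, at GGACA. It is the reader site closest to a stop codon. In the annotation the A is coding in 3 of 4 coding transcripts and in the 3′ UTR of the other. The gene has 9 annotated transcripts in all. The A is in a noncoding exon of 2, both annotated as retained intron with a support level of 1, and lies outside 3. The chosen transcript has a support level of 5, as have the other coding transcripts of the gene, so that Ythdc1 has no coding transcript with a support level of at most 3. Of its 57 DRACH A, 1 was listed, or 1.75% (0.31 to 9.29%). The introns of the chosen Ythdc1 transcript, 29134 nt in all, held no listed site.

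Ythdc2 encodes an RNA helicase with a YTH domain, best known for its role in meiosis. The gene spans 44827746 to 44889724 of chromosome 18 (plus strand) and had no listed site. Its spliced transcript of 7215 nt in 30 exons contains 144 DRACH A, more than any of the 4 members with sites.

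The IGF2BP proteins bind mRNAs of growth factors and many other transcripts, and are mostly found at high levels in embryonic tissue, with IGF2BP2 also present in adult tissue. None of the 3 genes had a listed site. Igf2bp1, on chromosome 11 from 95957163 to 96005940, contains 172 DRACH A on 8378 nt of spliced transcript, 127 of them in a 3′ UTR of 6337 nt. Igf2bp2, on chromosome 16 from 22059009 to 22163299, contains 80 and Igf2bp3, on chromosome 6 from 49085223 to 49214957, contains 85. All 3 are on the minus strand. Igf2bp2 and Igf2bp3 thus have about as many DRACH A as Ythdf2, which had 12 sites, 9 of them at DRACH. Whether the Igf2bp transcripts were present in the sampled RNA is not known from the list.

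The other genes of the m6A pathway were counted in the same way. Of 12 writer genes, which encode the methyltransferase complex and further m6A methyltransferases, 7 had sites, 56 in all. Rbm15, an RNA-binding subunit that guides the complex, had 15, and Zc3h13 and Virma, subunits of its regulatory part, had 10 and 9. Wtap and Rbm15b had 7 each, and Mettl16 and the cap methyltransferase gene Pcif1 had 4 each. Mettl3, which encodes the catalytic subunit, and the gene of its partner, Mettl14, had none, nor had Cbll1, Mettl5 and Zcchc4. Both demethylase genes had sites, with 6 in Alkbh5 and 2 in Fto. Together, writers and erasers thus had 64 sites in 9 of 14 genes, against 24 in 4 of 8 for the YTH and IGF2BP readers. Over all protein-coding genes, 23.1% had a site. The counts of genes in these lists rest on few members, and transcript levels were not known.

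Among 9 other proteins described as m6A readers, 5 had sites in their genes. Prrc2a had 17, more than any YTH reader, all of them in the CDS. The translation initiation factor gene Eif3a had 9 and the stress granule gene G3bp1 had 7, while Elavl1 had 2 and Hnrnpa2b1 had 1. Hnrnpc, Rbmx, Fmr1 and Snd1 had none. Of 8 genes whose proteins act with the YTH or IGF2BP readers, 5 had sites. Upf1, a helicase of mRNA decay, had 6, the poly(A)-binding protein gene Pabpc1 had 5 and Cnot1, the scaffold of CCR4-NOT, had 2. The export receptor gene Nxf1 and the splicing factor gene Srsf3 had 1 each, and Rida, Xrn1 and Srsf10 had none. By region, 57 of the 64 writer and eraser sites were in the CDS, 89.1% (79.1 to 94.6%), as were 28 of the 36 sites of the other readers, 77.8% (61.9 to 88.3%), and 6 of the 15 sites of the partners, 40% (19.8 to 64.3%). The intervals of the first 2 groups overlap that of the YTH readers. Of the other readers, Prrc2a (17 of 17), Eif3a (9 of 9) and Hnrnpa2b1 (1 of 1) had every site in the CDS. G3bp1 had 1 of 7 there and Elavl1 0 of 2. The erasers alone had 5 of 8 sites in the CDS, 62.5% (30.6 to 86.3%). Over the writers, erasers and other readers together, 14 of 23 genes had a site, or 60.9%, against 23.1% of all protein-coding genes. This difference was not tested, and the list holds no transcript levels.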

How the data were processed

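Poly(A)+ RNA of untreated RAW264.7 cells was profiled by miCLIP2 in 3 replicates of 1 condition. Per the methods and processing notes, the authors mapped the reads to GRCm38 with STAR 2.7.3a, removed duplicates with UMI-tools 1.0.0, handled alignments with SAMtools 1.9 and bedtools 2.27.1, called PureCLIP peaks, kept those present in at least 2 replicates and scored them with m6Aboost. The deposited value is the prediction score, kept above 0.5. m6Aboost takes the sequence and the transcript region as inputs, so motif and region shares depend in part on the model. The series text calls the line human, while the organism label is mouse. Every one of the 19301 positions is an A of GRCm38 when starts count from 0.

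Printed positions count from 1. Sites were placed on the GENCODE M21 transcript with the longest CDS (ties went to the longest spliced transcript); the authors used a later release of the same build. A site in overlapping genes was counted in each, and no reader site overlapped another gene. DRACH A were read on the spliced sequence. The YTHDF proteins were translated and aligned with MAFFT 7.526. Shares carry 95% Wilson intervals, and no statistical test was made. The placement of sites was checked on simulated positions. Scripts ran in Python 3.11.15 with matplotlib 3.10.9. Alternatives were minimum scores of 0.7 and 0.9, collapsed sites, another start, motif, transcript, window and alignment tolerance. Named genes were all members, the genes of the pathway lists, the macrophage genes given above and the 2 genes next above and below Ythdf2 in the ranking. The pseudogenes Gm8401 and Gm6823 are named as places of copied sequence. The members and lists were chosen with earlier results of these data known, and the descriptions of long exons, junctions, stretches of the alignment and genomic copies were added after the sites had been seen. A further macrophage gene chosen for the check of the cells is not reported here.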

Additional observations from a re-analysis of the deposited data

How the results depend on the processing

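No paired analysis was possible because replicates of 1 condition were pooled, which also means that none could be left out. With a minimum score of 0.7 the reader genes held 15 sites, all of them at DRACH (100%); with 0.9 they held 0 sites, and 0 reader genes had one, so that shares could not be computed at that score. A higher minimum leaves fewer sites by its construction. At 0.7, Ythdf2 fell from 12 sites to 6, Ythdf1 from 6 to 5 and Ythdf3 from 5 to 4, and 3 reader genes had a site, since the Ythdc1 site fell away. Of the writers, erasers and other readers, 3 had a site at 0.9. With the start read as 1-based, 3 of the 24 reader sites were at A. A window of 400 nt around the stop codon held 29.2% of the reader sites. Within 3 alignment columns there were 7 Ythdf site pairs. These increases follow from the wider windows. At a score of 0.7, 2 of the 3 pairs at the same codon were left, without the one at column 520.

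The shares in the CDS, from 93.3 to 95.8%, and in the 3′ UTR, from 4.17 to 6.67%, and the share of DRACH A listed in reader genes with a site, 7.39% (21 of 284) and from 6.61 to 9.64% otherwise, stayed within their intervals at a score of 0.7 and with the other transcripts or the RRACH motif, as far as each was run. At 0.7 the last share was 15 of 227, since the DRACH A of Ythdc1 no longer counted. The share within 200 nt of the stop codon was 4.35 to 8.33% in the other settings. Collapsing sites within 5 nt left 24 sites. With RRACH, 79.2% of the sites matched. Read depth per site is not in the list, so its effect on single sites cannot be given.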
